A study of Mus musculus with 5 samples.

Results

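The 10 genes described here are ligands and receptors of the interleukin-1 family. Il1a, Il1b, Il1rn, Il33 and Il18 encode the soluble members, and Il1r1, Il1r2, Il1rap, Il1rl1 and Il18r1 encode receptor chains. They were taken by gene symbol, with no measured value in the choice, and each of the 10 was found once among the 24860 gene symbols of the deposited tables. The study asked how progesterone changes the immune cells of a hormone receptor-positive mammary tumour grown from SSM2, a mouse mammary tumour cell line. Mice aged 10 to 12 weeks received 100000 SSM2 cells in a mammary gland and a pellet under the skin of the neck, made with 60 mg for release over 60 days. In the Placebo group (2 libraries) the pellet held no hormone and in the Progesterone group (3 libraries) it held progesterone, so all 5 tumours came from the same line and the groups differed by the pellet. Tumours were taken 28 to 62 days later, and no label ties a day to a library. They were dissociated with enzymes and force, filtered and freed of red cells, and their cells were read unsorted with a 10x Genomics 3′ kit. The titles place Placebo 1 and Progesterone 1 in batch 1, and Placebo 2, Progesterone 2 and Progesterone 3 in batch 2. The mouse strain is not given in the sources used here. In the names of their files, Progesterone 2 and 3 carry 1 common identifier with the letter L or R, so both tumours may come from 1 animal.

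Interleukin-1 alpha (Il1a) and interleukin-1 beta (Il1b) are inflammatory cytokines that myeloid cells make on danger signals. Interleukin-1 beta is made as a precursor that caspase-1 cuts in the inflammasome, and interleukin-18 (Il18) is cut by the same enzyme. Both interleukin-1 forms bind the receptor Il1r1, which signals together with the accessory chain Il1rap through MyD88 and NF-kappa B. Il1rn encodes the receptor antagonist, which occupies Il1r1 without a signal, and Il1r2 encodes a decoy receptor that binds ligand and cannot signal. Interleukin-33 (Il33) is a nuclear alarmin of epithelial and stromal cells. Its receptor ST2 (Il1rl1), which also pairs with Il1rap, is known from regulatory T cells, innate lymphoid cells that make interleukin-5 and interleukin-13, and mast cells. Il18r1 is the ligand-binding chain of the interleukin-18 receptor and is known from natural killer (NK) and effector T cells. In mammary tumours, interleukin-1 from myeloid cells is studied as a signal to tumour cells, fibroblasts and neutrophils.

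The genes lie in 2 tight groups and 4 single loci of the mouse genome (GRCm38, GENCODE M21). Il1a (chr2:129299610-129309972) and Il1b (chr2:129364570-129371139) are neighbours on the minus strand, 54597 bases apart, and Il1rn lies far from them on the plus strand (chr2:24336853-24351494). Il1r2 (chr1:40074079-40125231), Il1r1 (chr1:40225080-40317257), Il1rl1 (chr1:40429570-40465415) and Il18r1 (chr1:40465552-40500854) follow each other on the plus strand within 427 kb, and Il1rl1 ends 136 bases before Il18r1 begins. Il1rap (chr16:26581704-26730117), Il33 (chr19:29925114-29960718) and Il18 (chr9:50554827-50581840) stand alone on their chromosomes. The 250 bases before the first RefSeq start of the 3 ligand genes read together in myeloid cells are shown here (GRCm38.p6, 5′ to 3′ on each gene's own strand, Il1a at chr2:129309973-129310222, Il1b at chr2:129371140-129371389 and Il1rn at chr2:24336610-24336859). Capitals mark matches to the motifs searched.
Il1a: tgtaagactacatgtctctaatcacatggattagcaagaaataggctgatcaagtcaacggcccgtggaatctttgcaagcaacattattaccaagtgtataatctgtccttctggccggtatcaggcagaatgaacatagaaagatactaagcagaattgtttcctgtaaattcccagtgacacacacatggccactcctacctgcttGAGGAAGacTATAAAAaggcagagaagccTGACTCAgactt
Il1b: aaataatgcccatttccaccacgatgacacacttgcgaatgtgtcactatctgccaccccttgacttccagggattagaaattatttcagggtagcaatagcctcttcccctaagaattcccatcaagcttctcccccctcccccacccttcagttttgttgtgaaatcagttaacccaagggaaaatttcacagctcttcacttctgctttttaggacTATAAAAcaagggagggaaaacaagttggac
Il1rn: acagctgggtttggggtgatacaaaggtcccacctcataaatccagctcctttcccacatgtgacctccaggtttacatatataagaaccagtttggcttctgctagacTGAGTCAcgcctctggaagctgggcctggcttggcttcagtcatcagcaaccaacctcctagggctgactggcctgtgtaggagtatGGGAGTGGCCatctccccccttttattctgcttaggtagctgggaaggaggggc
A TATA box (TATAAAA) stood 32 bases before the start of Il1a and 31 bases before that of Il1b, and it is in 4.98% of the 32851 promoters of this length in the table. Il1a also held a PU.1 match (GAGGAAG) at 41 bases and an AP-1 match (TGANTCA) at 12 bases before the start. Il1rn held an AP-1 match at 141 bases and a kappa B match (GGGANNNNCC) at 54 bases before its first start and no TATA box there. Of all promoters, 6.75% held the AP-1 letters, 10.6% the PU.1 letters, 17.6% the kappa B letters and 9.56% the C/EBP letters TTGCNNAA, on either strand. The C/EBP letters were in promoters of Il1r1, Il1rl1 and Il33, the kappa B letters also in that of Il1rap, and the PU.1 letters also in that of Il18r1. The progesterone response element, searched as GNACANNNTGTNC, was in 0.387% of all promoters and in none of the 17 starts of the 10 genes. No motif searched overlapped another in the 3 promoters shown, and a match is only a match of letters.

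The 5 libraries held 23018 cells after doublet removal. Batch 2 libraries were deeper, with a median of 22760 to 24580 unique molecular identifiers (UMIs, counted molecules) per cell against 6231 and 8126 in batch 1, and pairs of libraries shared 2 to 12 cell barcodes. Cell classes were named from marker genes that are not members, with the members left out of the clustering. Placebo 1 stood apart, since 87.5% of its cells were T cells and it held 16 macrophages, 7 neutrophils and 3 epithelial cells. In batch 2, epithelial cells gave 84.5% to 90.6% of all UMIs. Macrophages, a class that here includes monocytes, numbered 619 in Placebo 2 and 293, 955 and 569 in Progesterone 1, 2 and 3. All 10 macrophage markers were read in them, and their summed level ranged from 3251 CPM (UMIs of a gene per 1000000 UMIs of the class) in Placebo 1 to 33210 in Progesterone 2. Classes with fewer than 10 cells in a library are left out of the values by class unless the cell number is given. Each value is of the summed UMIs of a class in a library, so it has only a counting error, and because the kit reads 3′ ends, levels of different genes are not compared with each other.

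The family divided by cell class. Neutrophils had the highest median level of Il1a, Il1b, Il1rn, Il18, Il1r2 and Il1rap, fibroblasts of Il1r1 and Il33, and T cells of Il1rl1 and Il18r1. The neutrophil medians are of Progesterone 1, 2 and 3 only, while those of macrophages and T cells are of all 5 libraries. Neutrophils were highest in 3 libraries for Il1b, Il1rn, Il1r2 and Il1rap. For Il1a they were highest in 2 libraries and macrophages in 3. For Il18 neutrophils and macrophages were highest in 2 libraries each and conventional dendritic cells in 1. Macrophages and conventional dendritic cells followed neutrophils for the inflammatory ligands, as the map of levels by class and library shows. The order was not sharp everywhere: the ranges over libraries of neutrophils and macrophages overlapped for Il1a and Il1b and did not for Il1rn. Averaging over cells in place of summing gave the same leading class for 9 of the 10 genes, and for Il18 it gave conventional dendritic cells. Il1b was read with 158972 UMIs in 21.6% of all cells and Il18r1 with 85174 UMIs in 50.3%, while Il1rl1 was read with 3221 UMIs in 4.14%.

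**Figure D1:**
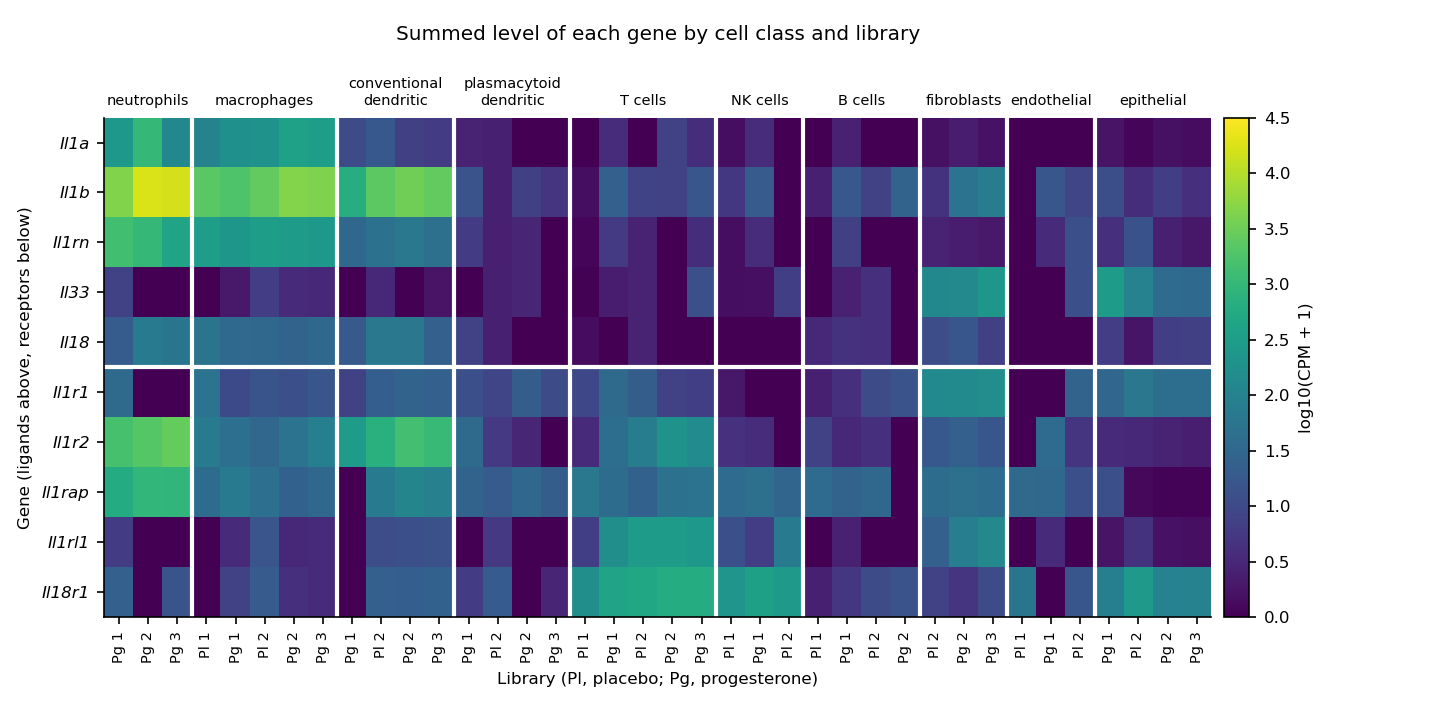
Level of the 10 genes (rows) in each cell class and library (columns, leaving out libraries with under 10 such cells), as log10(CPM + 1) by colour. Il1a, Il1b and Il1rn are bright in neutrophils and macrophages, Il1r2 in neutrophils and conventional dendritic cells, and Il33 and Il1r1 in fibroblasts and epithelial cells.

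Il1b, the gene of the main secreted interleukin-1, was highest in neutrophils and was mostly counted in macrophages, which are many more. In neutrophils it reached 4390 CPM in Progesterone 1 (328 cells), 17700 in Progesterone 2 (25 cells) and 16110 in Progesterone 3 (29 cells). The 7 neutrophils of Placebo 1 gave 2437 CPM and the 5 of Placebo 2 gave 20920, so the libraries of batch 1 were low and those of batch 2 high under both pellets. Macrophages gave 57.7% to 88.7% of the Il1b UMIs of a library. Their Il1b level was 2210 CPM in Placebo 1 and 2629 in Placebo 2, against 1807 in Progesterone 1, 4665 in Progesterone 2 and 4279 in Progesterone 3. Progesterone 2 and 3 were thus the highest and Progesterone 1 the lowest, and the groups overlapped. In conventional dendritic cells Il1b was 2297 CPM in Placebo 2 and 631, 3316 and 2610 CPM in Progesterone 1, 2 and 3. Thinned to 2000 UMIs per cell, 72.8% and 71.9% of the macrophages of Progesterone 2 and 3 had an Il1b UMI, 56.6% in Placebo 2, 50.7% in Progesterone 1 and 8 of 16 in Placebo 1, against 0 to 5.90% of T cells. Without thinning the macrophage shares were 66.2% to 85.0%, at median depths of 12350 to 20630 UMIs per macrophage and 4083 to 8346 per T cell.

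Il1a, which acts without caspase-1 cutting, was read almost only in the same cells, with 69.8% to 94.3% of its UMIs in macrophages. The macrophage level was 102 CPM in Placebo 1 (43 UMIs) and 196.5 in Placebo 2, against 183.1 in Progesterone 1, 373 in Progesterone 2 and 334.6 in Progesterone 3. Within each batch every progesterone library was above the placebo library, and across batches the groups overlapped. Neutrophils gave 247.7 CPM in Progesterone 1, 995.8 in Progesterone 2 (75 UMIs) and 125.4 in Progesterone 3 (9 UMIs). Conventional dendritic cells, rich in Il1b, had 5.26 to 16.2 CPM of Il1a.

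Il1rn, the receptor antagonist, was the myeloid ligand whose macrophage level varied least between libraries. It was 313 CPM in Placebo 1 and 317 in Placebo 2, against 236, 288 and 252 in Progesterone 1, 2 and 3. All 3 progesterone libraries lay below both placebo libraries over the whole class, and not within every sub-class, as given below. Neutrophils held 1346 CPM in Progesterone 1, 1009 in Progesterone 2 and 432 in Progesterone 3, and conventional dendritic cells 30.5 to 62.8. Set against Il1b in the same cells, macrophages had 14.2 Il1rn UMIs per 100 Il1b UMIs in Placebo 1, 12.1 in Placebo 2 and 13.1 in Progesterone 1, but 6.18 and 5.89 in Progesterone 2 and 3. In neutrophils this ratio was 30.7 in Progesterone 1, 5.70 in Progesterone 2 and 2.68 in Progesterone 3.

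**Figure D2:**
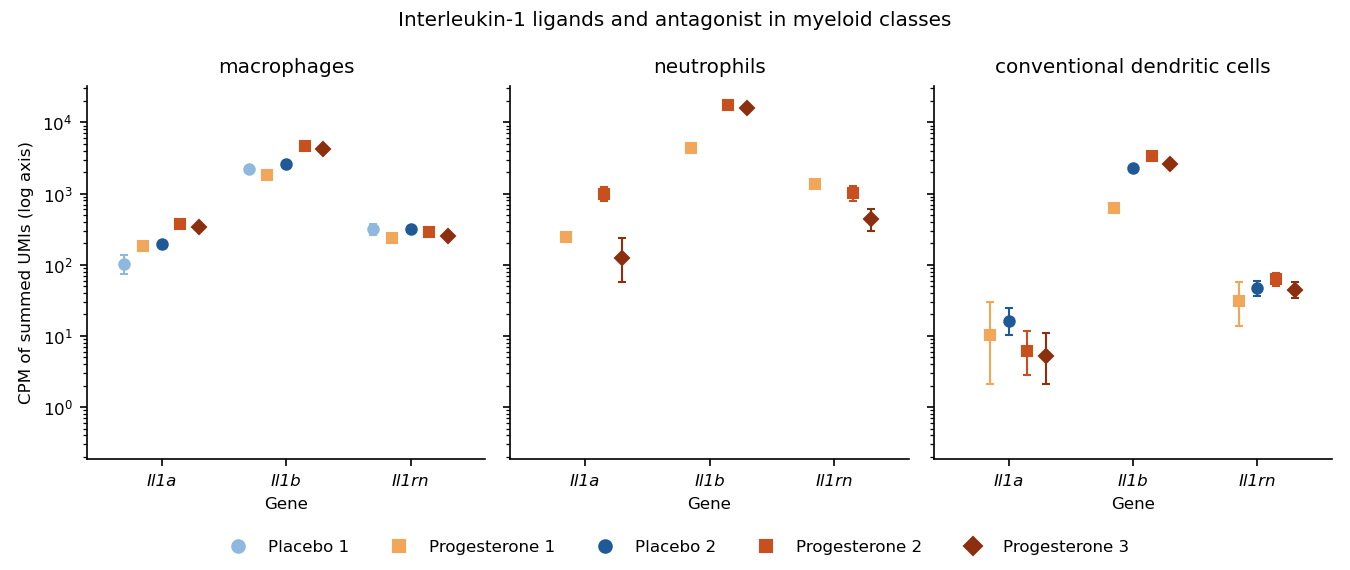
Il1a, Il1b and Il1rn in macrophages, neutrophils and conventional dendritic cells (panels) of each library, in CPM on a log axis. Bars are exact 95% Poisson intervals, which cover counting error only. Il1b in macrophages lies between 1807 and 4665 CPM and is highest in Progesterone 2 and Progesterone 3.

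In the fit over all 5 libraries with batch as a term, none of the 10 genes passed the test of progesterone against placebo in macrophages. Of 11859 genes, 6 (0.0506%) passed an adjusted p of 0.05 (edgeR's quasi-likelihood test, Benjamini-Hochberg over all genes), all lower with progesterone. Of the members, 0 of 10 passed and 4 had an unadjusted p under 0.05, against 1659 of the 11859 genes. DESeq2 called 1 of the 7 members it tested (Il1a, adjusted p = 0.00281), against 2.44% of all genes. The log2 ratio of progesterone to placebo was 0.89 ± 0.20 (SE) for Il1a (adjusted p = 0.152), 0.35 ± 0.26 for Il1b (adjusted p = 0.583) and -0.26 ± 0.19 for Il1rn (adjusted p = 0.591). Nothing in the labels says that libraries of a group are separate animals, so these p-values measure the spread between libraries, which may be technical. Batch 2 alone, chosen after the data were seen because Placebo 1 had 16 macrophages, compared 2 progesterone libraries with 1 placebo library, and there 6 of 10 members passed against 16.0% of all genes. Il1a rose by 0.87 ± 0.16 on the log2 scale (adjusted p = 0.000253) and Il1b by 0.79 ± 0.14 (adjusted p = 0.000253), in a comparison where 6.98% of genes rose and 9.0% fell. Il1rap, Il1rl1, Il33 and Il18r1 fell in it, and Il1rn (-0.21 ± 0.15, adjusted p = 0.404), Il1r1, Il1r2 and Il18 did not pass. The difference between batches was not tested.

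Within macrophages of batch 2, the Il1b level was highest in 2 sub-clusters, 0 and 6, whose share of cells differed between libraries. In Placebo 2, 14858 of 23626 Il1b UMIs and 1170 of 1766 Il1a UMIs lay outside them. The numbers outside were 24503 of 64347 and 1952 of 5145 in Progesterone 2, and 11918 of 32433 and 875 of 2536 in Progesterone 3. Sub-cluster 0, led by Mir155hg, Gpr84, Fam171b and Il1a itself, held 22.9% of the macrophages of Progesterone 2, 18.3% of those of Progesterone 3, 6.95% of those of Placebo 2 and 0 of either batch 1 library. Its Il1b level was 8231 CPM in Placebo 2, 8018 in Progesterone 2 and 8140 in Progesterone 3, and its Il1a level was 958, 810 and 885 CPM in the same order. The 3 libraries were thus close to each other inside the sub-cluster. Sub-cluster 6, led by Il1r2, Ly6i, H2-Oa and Gpr171, had 37, 97 and 62 cells in those libraries and Il1b levels of 10920, 11330 and 9572 CPM. Low levels were read in sub-cluster 5, led by Lyve1, Cd209g and Cd209f, with 181 cells and 555 CPM of Il1b in Placebo 2 and 21 cells and 1186 CPM in Progesterone 2. The cycling sub-cluster 10 had 481 CPM in Placebo 2 (28 cells) and 4496 and 3688 CPM in Progesterone 2 and 3 (53 and 32 cells). Progesterone 1 macrophages lay mostly in sub-clusters 9 (Adgre4, Ly6c2) and 8 (Adm, Nos2), with 131 cells at 1924 CPM and 98 cells at 1817 CPM of Il1b, so different sub-clusters held most macrophages in different libraries. With sub-clusters 0 and 6 left out, which removed 12.9% of Placebo 2 macrophages, 33.1% of Progesterone 2 and 29.2% of Progesterone 3, Il1b was 1846, 2614 and 2276 CPM and Il1a 145, 208 and 167 CPM. With sub-clusters 4 (Cd226, Ear2) and 5 left out instead, which removed 50.6%, 6.60% and 8.44%, Il1b was 3722, 4867 and 4507 CPM in the same order. Progesterone 2 and 3 were above Placebo 2 in both, with sub-clusters that were picked for their Il1b level. Within named sub-classes the direction varied. In the C1q-high sub-class Il1b was 3674 CPM in Placebo 2 against 4392 and 4063 CPM in Progesterone 2 and 3, and Il1a was 468.5 against 432.6 and 387.1 CPM. In the monocyte-like sub-class Il1b was 3147 CPM in Placebo 2 against 2252 and 1316 CPM in Progesterone 2 and 3. Batch 1 went the other way there, with 723 CPM in Placebo 1 (12 cells) and 1844 CPM in Progesterone 1 (136 cells). Il1rn in the C1q-high sub-class was 294.8 CPM in Placebo 2 against 209.8 and 170.6 CPM in Progesterone 2 and 3. Monocyte-like cells had 227.2 against 302.5 and 267.6 CPM of it, and cycling cells 187.4 against 281.6 and 268.8 CPM. Monocyte-like cells of batch 1 had 183.9 CPM of Il1rn in Placebo 1 and 189.4 in Progesterone 1. The tumour keratin Krt8 was read in 81.7% to 95.7% of the cells of sub-clusters other than 8 and 9, and in 46.5% and 26.1% of the cells of those. The part of Krt8-bearing RNA in these levels was not tested. The sub-clusters were found from the same cells, so their levels are a description.

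**Figure D3:**
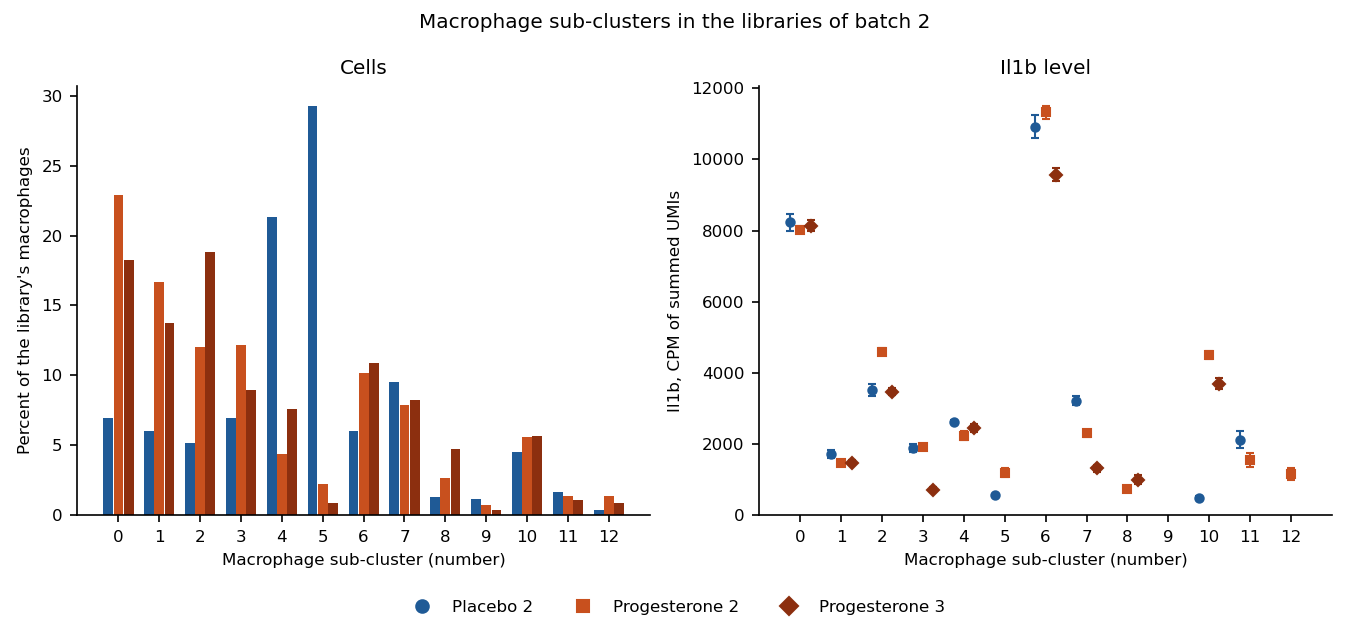
Left, percent of each batch 2 library's macrophages in sub-clusters 0 to 12. Right, Il1b in CPM in each sub-cluster with at least 10 cells of the library. Sub-clusters 0 and 6 have the highest Il1b in all 3 libraries, 8018 to 11330 CPM.

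Il33, the alarmin, was read in fibroblasts and tumour epithelial cells and hardly in immune cells. In fibroblasts it was 123.4 CPM in Placebo 2 (315 cells), 130.7 in Progesterone 2 (55 cells) and 238.1 in Progesterone 3 (114 cells). In the epithelial class it was 303 CPM in Progesterone 1 (58 cells), 99.4 in Placebo 2, 36.0 in Progesterone 2 and 34.0 in Progesterone 3. The few batch 1 cells were the highest, and within batch 2 the placebo library was above both progesterone libraries. Macrophages had 0 to 5.57 CPM of Il33. In batch 2 macrophages it was 5.60% to 6.65% of the epithelial level, where the keratin Krt8 stood at 3.30% to 3.87%. The part of free epithelial RNA in these UMIs was not tested.

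Il18, a partner of Il1b in caspase-1 cutting, was low in all classes and present in myeloid cells, fibroblasts and tumour cells. The macrophage level was 52.2 CPM in Placebo 1 (22 UMIs), 32.6 in Placebo 2, 32.9 in Progesterone 1, 26.2 in Progesterone 2 and 30.3 in Progesterone 3. Conventional dendritic cells had 16.96 to 61.3 CPM and neutrophils 19.5 to 66.4, the last from 4 to 30 UMIs. Fibroblasts had 10.55 CPM in Placebo 2 (88 UMIs), 14.73 in Progesterone 2 (24 UMIs) and 6.11 in Progesterone 3 (18 UMIs). The groups overlapped in macrophages, and the fitted log2 ratio was -0.31 (edgeR, adjusted p = 0.564). In the epithelial class Il18 was 0.787 CPM in Placebo 2 (122 UMIs) against 5.70 in Progesterone 1 (16 UMIs), 5.85 in Progesterone 2 (1016 UMIs) and 6.26 in Progesterone 3 (975 UMIs). All 3 progesterone libraries thus lay above Placebo 2, the only placebo library with at least 10 cells named epithelial.

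Il1r1, the signalling receptor of both interleukin-1 forms, was a stromal and tumour cell gene here. Fibroblasts had 135 CPM in Placebo 2, 143 in Progesterone 2 and 168 in Progesterone 3, above every epithelial value. The epithelial level was 60.0 CPM in Placebo 2 and 29.9, 41.6 and 40.6 CPM in Progesterone 1, 2 and 3. Macrophages had 9.15 to 14.9 CPM and 49.8 in Placebo 1 (21 UMIs). The T cell level was 8.32 CPM in Placebo 1, 20.3 in Placebo 2, 34.7 in Progesterone 1, 6.74 in Progesterone 2 (1 UMI) and 5.89 in Progesterone 3 (2 UMIs). Within T cells it was concentrated in sub-cluster 14, 48 cells led by Il23r, Il1r1, Abi3bp and Blk, at 863 CPM in Placebo 1 (240 UMIs) and 986 in Progesterone 1 (128 UMIs). Il23r is the interleukin-23 receptor of cells that make interleukin-17.

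Il1r2, the decoy receptor, was read in neutrophils at 1543 CPM in Progesterone 1, 2085 in Progesterone 2 and 2732 in Progesterone 3. In conventional dendritic cells it was 716 CPM in Placebo 2 and 291.7, 1426 and 1125 CPM in Progesterone 1, 2 and 3. Batch 2 libraries with progesterone were above Placebo 2, and Progesterone 1, with 13 such cells, was below it. The UMIs lay in cluster 22 (Klrb1b, Timd4, Mgl2, Xcr1; 807 CPM in Placebo 2, 1624 in Progesterone 2 and 1217 in Progesterone 3) and hardly in cluster 32, the cells with Fscn1, Ccl22 and Il12b, which had 18.4 CPM in Placebo 2 and 11.1 in Progesterone 2 from 3 and 2 UMIs. Il1r2 rose with progesterone in this class by 0.89 ± 0.20 on the log2 scale (edgeR's quasi-likelihood test, adjusted p = 0.00197), the only one of 9 tested members to pass, against 3.59% of all genes in either direction. DESeq2 called 0 of the 10 members it tested (1 with an unadjusted p under 0.05) and 0.0336% of all genes, and the fit without batch called 0 members and 0% of genes. With batch as a term the ratio rests on Placebo 2 against Progesterone 2 and 3, since Progesterone 1 is the only library of its batch here, and Progesterone 1 lay below Placebo 2. Il1a (-1.43 ± 0.58, adjusted p = 0.192), Il1b (0.42 ± 0.19, adjusted p = 0.297) and Il1rap (0.56 ± 0.26, adjusted p = 0.287) did not pass in these cells. Markers of conventional dendritic cells summed to 1316, 1202, 872 and 760 CPM in Progesterone 1, Placebo 2, Progesterone 2 and Progesterone 3, with 8 of 8 read in each, and macrophage markers to 397, 905, 559 and 760 CPM. Their part in the difference was not tested.

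Il1rap, the shared accessory chain, was broad among immune cells and nearly missing from tumour cells. Neutrophils had 576 CPM in Progesterone 1, 943 in Progesterone 2 and 920 in Progesterone 3, far above the other classes. T cells had 62.9 and 23.9 CPM in Placebo 1 and 2 and 38.4, 47.2 and 50.04 CPM in Progesterone 1, 2 and 3, and fibroblasts 38.0 to 45.4. In macrophages it was 37.9 CPM in Placebo 1 (16 UMIs) and 70.6 in Progesterone 1, and 42.3, 23.99 and 32.2 in Placebo 2, Progesterone 2 and Progesterone 3. Progesterone was thus higher in batch 1 and lower in batch 2. In the epithelial class of batch 2 it was 0.0964 to 0.232 CPM (15 to 36 UMIs among 2831 to 3311 cells), while Il1r1 was read there at 40.6 to 60.0 CPM. The 32 epithelial UMIs of Progesterone 1 came mostly from 1 cell, which held 25.

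Il1rl1, the receptor of interleukin-33, was read in T cells and fibroblasts. The T cell level was 5.97 CPM in Placebo 1, 302 in Placebo 2, 168 in Progesterone 1, 310 in Progesterone 2 and 247 in Progesterone 3. Placebo 1, whose T cells were mostly in a naive-like cluster led by Lef1 and Cd4 and another led by Cd8b1 and Cd8a, stood far below the other 4. In the regulatory T cells (sub-clusters 6 and 7, both with Foxp3 among their leading genes) the level was 63.5 and 295.5 CPM in Placebo 1 and 2 (152 and 56 cells) and 294.7, 402.3 and 319 CPM in Progesterone 1, 2 and 3 (70, 23 and 48 cells). Placebo 1 was again the lowest, and it was also the lowest in sub-cluster 6 alone, at 163 CPM in 16 cells against 279 to 413. Sub-cluster 13, led by Pparg, Il1rl1, Dach2 and Rnd3, had the highest levels, 1420 CPM in Progesterone 1 (36 cells), 2264 in Placebo 1 (4 cells) and 2251 in Placebo 2 (7 cells). Of all 48 cells of sub-cluster 13, 45 had Gata3, 36 had Cd3e, 25 had Cd4, 9 had Il13 and 9 had Il5, genes of helper T cells and innate lymphoid cells of allergic responses. Thinned to 2000 UMIs, 0.616% of T cells in Placebo 1 and 10.7% to 33.3% in the other libraries had an Il1rl1 UMI, against 0 of B cells in every library.

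Il18r1, the interleukin-18 receptor chain, was a lymphocyte gene that the tumour cells of this line also carried. T cells had 168 CPM in Placebo 1, 488 in Placebo 2, 428 in Progesterone 1, 614 in Progesterone 2 and 618 in Progesterone 3, and NK cells 223 in Placebo 1, 364 in Progesterone 1 and 265 in Placebo 2. Among T cell sub-clusters with at least 10 cells of a batch 1 library, sub-cluster 14 had the highest level, 1255 and 1117 CPM in Placebo 1 and Progesterone 1. Next came sub-cluster 10 in Placebo 1 (980 CPM) and regulatory sub-cluster 7 in Progesterone 1 (947 CPM, 27 cells). Sub-clusters 0 to 3, which held most T cells of Placebo 1, had 78 to 154 CPM in Placebo 1 and 138 to 278 in Progesterone 1. In the epithelial class Il18r1 was 262 CPM in Placebo 2, 87.9 in Progesterone 1, 97.0 in Progesterone 2 and 98.0 in Progesterone 3, and these cells gave 94.5% to 98.4% of the Il18r1 UMIs of batch 2. Thinned to 2000 UMIs, 35.4% of epithelial cells in Placebo 2, 11.1% in Progesterone 1, 17.2% in Progesterone 2 and 16.9% in Progesterone 3 had an Il18r1 UMI, against 0 to 0.5% of B cells. Unthinned, the epithelial shares were 72.4% to 94.3%, at median depths of 36880 to 49860 UMIs per epithelial cell and 4517 to 11400 per B cell.

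None of the members tested in T cells passed the test between the groups. In that class 1 of 6965 genes (0.0144%) passed, and 0 of the 5 members tested. An unadjusted p under 0.05 was found for 2 of the 5 members and for 500 of the 6965 genes. DESeq2 called 0 of 6 members (0.141% of all genes). The log2 ratio was 2.39 ± 0.74 for Il1r2 (edgeR, adjusted p = 0.558), 0.71 ± 0.24 for Il18r1 (adjusted p = 0.524) and 1.67 ± 1.40 for Il1rl1 (adjusted p = 0.906). Il1r2 in T cells was 2.37 and 81.0 CPM in Placebo 1 and 2 and 40.8, 202 and 150 CPM in Progesterone 1, 2 and 3. Each progesterone library was thus above the placebo library of its batch, and in the regulatory T cells the values were 31.3 and 96.2 CPM in Placebo 1 and 2 and 195.7, 262.4 and 169.1 CPM in Progesterone 1, 2 and 3. In sub-cluster 6 alone, with 16 cells of Placebo 1, the placebo values were 132 and 97.2 CPM. T cell numbers were 4153 and 460 in batch 1 and 90, 29 and 61 in batch 2, and the share of naive-like cells moved with Placebo 1, whose part in these ratios was not tested.

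In B cells 0 of the 2 members tested passed, against 0.454% of 7490 genes, and DESeq2 tested none of them. Il1b was 1.49 CPM in Placebo 1, 15.5 in Progesterone 1, 6.35 in Placebo 2 and 26.5 in Progesterone 2 (log2 ratio 2.96 ± 0.78, edgeR, unadjusted p = 0.00182, adjusted p = 0.172). Over all cells of the same libraries Il1b was 31.9, 803, 153 and 373 CPM, and its part in the B cell values was not tested.

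In fibroblasts Il1rl1 was higher in Progesterone 2 and 3 than in Placebo 2, and Il1b passed through 1 cell in each progesterone library. The fit had Placebo 2 against Progesterone 2 and 3, and 2 of the 8 members tested passed, against 4.60% of 11371 genes in either direction and 2.86% upward. DESeq2 called 2 of 8 (1.47% of genes). Il1rl1 was 22.9 CPM in Placebo 2 (191 UMIs, 32 of 315 cells), 83.5 in Progesterone 2 (136 UMIs, 14 of 55 cells) and 127.7 in Progesterone 3 (376 UMIs, 43 of 114 cells). Both progesterone libraries were above the placebo library, and the log2 ratio was 2.40 ± 0.29 (edgeR). All spread within a group in the fibroblast fits comes from Progesterone 2 and 3, which may be from 1 animal. Spread between placebo tumours is not measured in them. Without the cell with most UMIs in each library the levels were 19.9, 59.1 and 109.3 CPM. Thinned to 2000 UMIs, 3.93%, 7.41% and 17.7% of fibroblasts had an Il1rl1 UMI, in the same order, and unthinned 10.2%, 25.5% and 37.7%. Il1b was 3.60, 51.6 and 77.4 CPM (log2 ratio 4.36 ± 0.35, adjusted p = 5.6e-06), but 1 cell gave 73 of the 84 UMIs of Progesterone 2 and 1 cell gave 211 of the 228 of Progesterone 3. Both cells carried macrophage transcripts (48 and 46 UMIs of C1qa, 271 and 206 of Cd74) beside 393 and 160 UMIs of Col1a1. Without the top cell of each library Il1b was 3.37, 6.94 and 5.87 CPM. Over all fibroblasts C1qa was 4.67, 33.8 and 19.4 CPM and Cd74 18.2, 182 and 81.8 CPM in Placebo 2, Progesterone 2 and Progesterone 3. With cells of at least 10 C1qa UMIs left out (1 cell in each progesterone library, an alternative added after the data were seen) C1qa was 4.67, 4.42 and 3.8 CPM and Cd74 18.2, 16.4 and 12.1 CPM. In that fit Il1b did not pass (0.99 ± 0.65, edgeR, adjusted p = 0.53), Il1rl1 did (2.44 ± 0.26, adjusted p = 3.9e-18) and so did Il33 (0.81 ± 0.22, adjusted p = 0.00478), against 6.91% of genes in either direction and 4.22% upward. In the fit with all cells Il33 (0.78 ± 0.42, adjusted p = 0.539) and Il1r1 (0.39 ± 0.20, adjusted p = 0.397) did not pass. Macrophage markers summed to 1871, 2219 and 2978 CPM in the fibroblasts of Placebo 2, Progesterone 2 and Progesterone 3, against 38000, 43560 and 43450 for fibroblast markers, 8 of 8 read.

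In the epithelial class, which holds the SSM2 tumour cells, Il18 was higher with progesterone, 7 members were lower, and Il1a passed as higher at a level near that of macrophage transcripts read in these cells. The fit had Placebo 2 as its only placebo library and 1 residual degree of freedom, and with batch as a term it rests on Placebo 2 against Progesterone 2 and 3. In it 50.2% of 16382 genes passed (24.8% higher, 25.4% lower), so the 9 of 10 members that passed are read against that share. The fit without batch called 4 of 10 members and 4.16% of genes, and DESeq2 called 6 of 10 and 31.2%. Il18 had a log2 ratio of 2.80 ± 0.19 (edgeR, adjusted p = 6.6e-10) and Il1a of 1.42 ± 0.41 (adjusted p = 0.00738), the latter at 0.174 to 0.712 CPM. Epithelial Il1a was 0.0886%, 0.167% and 0.123% of the macrophage level in Placebo 2, Progesterone 2 and Progesterone 3, where the macrophage gene C1qa was at 0.0861%, 0.109% and 0.0625%, and the part of free macrophage RNA in the Il1a ratio was not tested. Il33 fell by 1.65 ± 0.09 (adjusted p = 3.2e-11), Il18r1 by 1.57 ± 0.09 (adjusted p = 8.8e-11) and Il1r1 by 0.69 ± 0.09 (adjusted p = 2.8e-06) on the log2 scale. The Il33 log2 ratio was 0.013 without batch, because Progesterone 1, at 303 CPM in 58 cells, then counted with the other progesterone libraries. Il1rl1 fell by 2.72 ± 0.23 from 3.57 CPM in Placebo 2 to 0.508 to 0.712 in the progesterone libraries. Il1r2 and Il1rap fell by 0.66 ± 0.21 and 1.23 ± 0.44 at levels of 0.0964 to 2.49 CPM in batch 2, and Il1b (0.50 ± 0.60, adjusted p = 0.587) did not pass. Epithelial markers summed to 16550 CPM in Progesterone 1 (8 of 10 read), 29660 in Placebo 2, 18850 in Progesterone 2 and 19730 in Progesterone 3.

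Il1rn gave the widest gap between tumour cells of batch 2. It was 12.8 CPM in Placebo 2 (1986 UMIs in 842 of 2831 cells), 1.53 in Progesterone 2 (266 UMIs in 209 of 3119 cells), 0.919 in Progesterone 3 (143 UMIs in 118 of 3311 cells) and 3.20 in Progesterone 1 (9 UMIs). The log2 ratio was -3.52 ± 0.31 (edgeR, adjusted p = 0.00129). No single cell carried it, since the cell with most held 36 of the 1986 UMIs. In Placebo 2 the epithelial level was 4.04% of the macrophage level for Il1rn, against 0.108% for Il1b and 0.0861% for the macrophage gene C1qa. In Progesterone 2 and 3 these shares were 0.532% and 0.364% for Il1rn, 0.124% and 0.0733% for Il1b, and 0.109% and 0.0625% for C1qa. For Il18 the share was 2.41% in Placebo 2 and 22.3% and 20.6% in Progesterone 2 and 3. Thinned to 2000 UMIs, 2.45% of epithelial cells in Placebo 2, 0.451% in Progesterone 2, 0.214% in Progesterone 3 and 0 in Progesterone 1 had an Il1rn UMI, and unthinned 29.7%, 6.70%, 3.56% and 12.1%.

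The tumour cells of Placebo 2 and of Progesterone 2 and 3 fell in different clusters. Clusters 1 and 18 held 2338 and 366 cells of Placebo 2, and cluster 1 had 9 and 4 cells of Progesterone 2 and 3. Clusters 2, 4, 6, 7 and 11 held most cells of Progesterone 2 and 3, so treatment and cluster cannot be told apart over the whole class. Cluster 2 (Defb1, Agtr1a, Aldh3b2) held 34 cells of Placebo 2, where Il33 was 118 CPM against 50.8 and 52.6 in Progesterone 2 and 3. Cluster 4 (Ntm, Tns4, Rp1) held 22 cells of Placebo 2, with Il33 at 103.7 CPM against 32.9 and 25. Placebo 2 was thus above Progesterone 2 and 3 for Il33 inside both clusters as well. Il1rn in the Placebo 2 cells of these clusters was 0.858 and 0.774 CPM from 2 and 1 UMIs, close to the 0.747 to 1.79 of Progesterone 2 and 3, while cluster 1 had 13.1. Il18 was 4.29 and 3.87 CPM there from 10 and 5 UMIs, against 4.99 to 9.57 in Progesterone 2 and 3 and 0.7997 in cluster 1. Il18r1 was 83.6 and 148 CPM, against 68.5 to 128, and 275 in cluster 1.

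**Figure D4:**
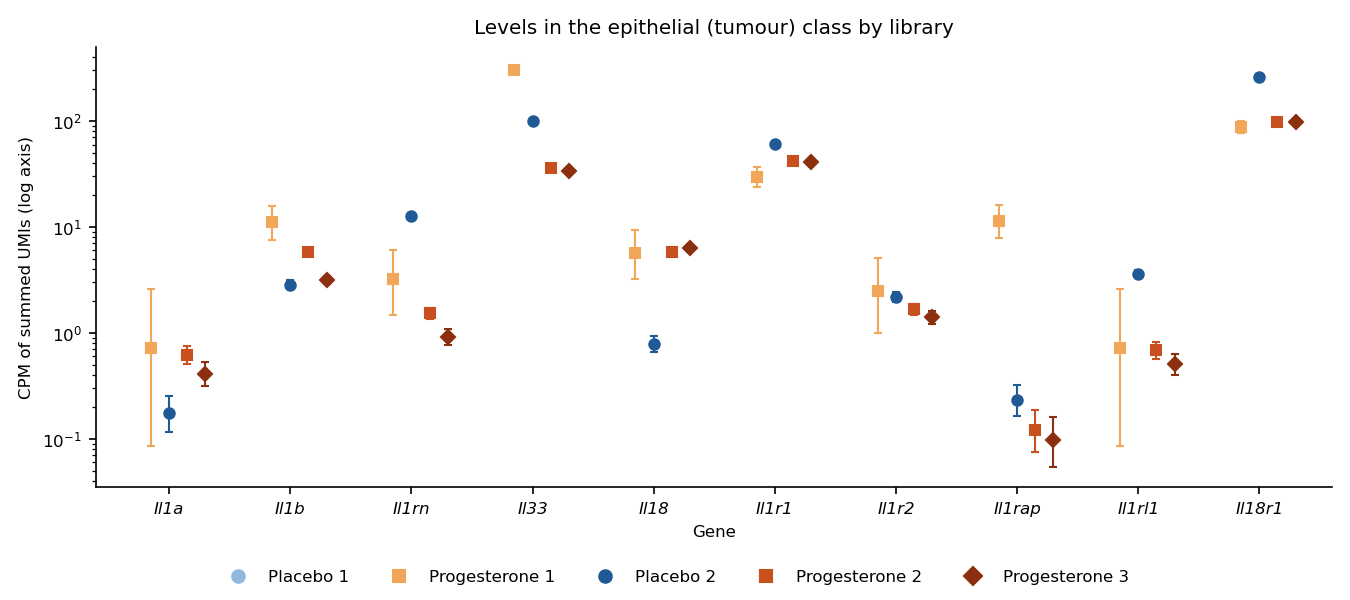
Level of the 10 genes in the epithelial class of each library, in CPM on a log axis; Placebo 1 has 3 such cells and no point. Il18 lies higher and Il1rn, Il33, Il18r1 and Il1rl1 lie lower in Progesterone 2 and Progesterone 3 than in Placebo 2.

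Macrophages of Placebo 2 also held more Il18r1 and Il1rl1 than those of the other libraries. Il18r1 was 18.6 CPM in Placebo 2 (167 UMIs), 0 in Placebo 1, 6.61 in Progesterone 1, 3.05 in Progesterone 2 and 2.38 in Progesterone 3. Of the 167 UMIs, 129 lay in the Lyve1 sub-cluster 5, at 58.5 CPM. Il1rl1 was 14.4 CPM in Placebo 2 (129 UMIs) against 0 to 2.64 in the other 4, with 29.2 CPM in sub-cluster 4 and 17.7 in sub-cluster 5 of Placebo 2. In batch 2 alone the log2 ratio was -2.71 ± 0.28 for Il18r1 (edgeR, adjusted p = 3.2e-08) and -2.55 ± 0.30 for Il1rl1 (adjusted p = 5.1e-07). Without sub-clusters 4 and 5 the levels in Placebo 2, Progesterone 2 and Progesterone 3 were 5.22, 2.72 and 2.21 CPM for Il18r1 and 3.56, 0.700 and 1.62 CPM for Il1rl1. Il18r1 in macrophages was 7.09%, 3.14% and 2.42% of the epithelial level in Placebo 2, Progesterone 2 and Progesterone 3. The keratin Krt8 stood there at 3.43%, 3.87% and 3.30%. Epithelial markers in macrophages summed to 21.3 and 103 CPM in batch 1 and to 1189, 767 and 657 CPM in Placebo 2, Progesterone 2 and Progesterone 3. The part of free epithelial RNA in these levels was not tested.

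**Figure D5:**
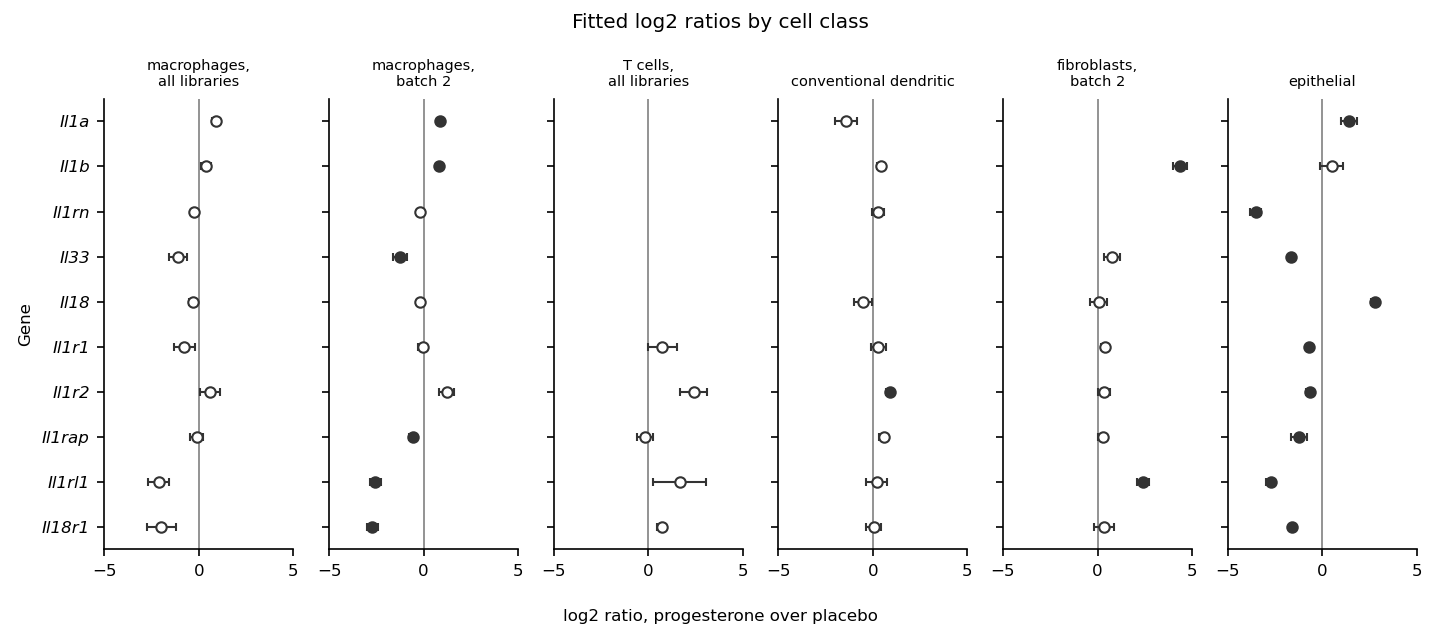
Fitted log2 ratio of progesterone to placebo ± SE for each member in 6 fits (panels), filled where the adjusted p is under 0.05. Of the members tested, 0 of 10 are filled in macrophages over all libraries, 6 of 10 in batch 2 alone, 0 of 5 in T cells, 1 of 9 in conventional dendritic cells, 2 of 8 in fibroblasts and 9 of 10 in epithelial cells.

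In sums over all cells of a library, fewer cells of a type and less RNA per cell cannot be told apart. Il1b was 31.9 CPM in Placebo 1, 153 in Placebo 2, 803 in Progesterone 1, 373 in Progesterone 2 and 225 in Progesterone 3. Il33 was 1.57, 92.2, 57.0, 33.6 and 35.4 CPM in the same order. All 3 progesterone libraries were above both placebo libraries for Il1b, and for Il33 Placebo 1 was lowest and Placebo 2 highest. Of 17528 genes 0 (0%) passed, with 1306 at an unadjusted p under 0.05 and 2.50% called by DESeq2. Of the members 0 of 10 passed, 2 had an unadjusted p under 0.05 (Il18 with a log2 ratio of 1.91 and Il18r1 with -1.16) and DESeq2 called 0. In batch 2 alone 5 of 10 passed against 35.7% of genes: Il18 (1.12) and Il1r2 (0.63) higher, and Il33 (-1.48), Il18r1 (-1.45) and Il1r1 (-0.67) lower on the log2 scale.

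The other genes of the pathway were taken as 77 genes in 4 lists: other ligands, receptors and decoys, processing of precursors, signalling, and genes that respond to interleukin-1. In macrophages 0 of the 60 tested passed and 13 had an unadjusted p under 0.05, against 1659 of 11859 genes. DESeq2 called 3 of 52 (Peli1 and Saa3 higher, Ccl2 lower), against 180 of 7377 genes. The median log2 ratio of the 60 was 0.15, against 0.03 for all genes. In batch 2 alone 12 of 60 passed, of which 7 rose and 5 fell, against 6.98% of all genes higher and 9.0% lower. The kinase Irak2 was 217 CPM in Placebo 2, 334 in Progesterone 2 and 402 in Progesterone 3, and Nlrc4, an inflammasome sensor, 11.4, 21.3 and 28.2 CPM. Casp4, P2rx7, Peli1, Mmp9 and Saa3 also rose, and Il18rap, Irak1, Tollip, Areg and Il6 fell. In T cells 0 of 37 passed (DESeq2 0 of 43), and 7 had an unadjusted p under 0.05, against 500 of 6965 genes. In B cells 0 of 33 passed (DESeq2 0 of 23), and 4 had an unadjusted p under 0.05, against 586 of 7490 genes.

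In fibroblasts 10 of the 51 genes tested rose and 0 fell, against 2.86% of all genes higher, with a median log2 ratio of 0.34 against 0.01 for all genes. Without the cells of at least 10 C1qa UMIs 14 of 50 rose and 1 (Areg) fell, against 4.22% of genes higher, and all 10 were among the 14. They comprised 6 of 17 responsive genes, 3 of 23 signalling genes and 1 of 10 processing genes, and DESeq2 called 7 of 49, all higher. Cxcl2, a neutrophil-attracting chemokine, was 29.6 CPM in Placebo 2, 211 in Progesterone 2 and 116 in Progesterone 3 (log2 ratio 2.62 ± 0.36, edgeR, adjusted p = 0.00642). Ptgs2, the inducible cyclooxygenase, was 92.1, 350 and 321 CPM (log2 ratio 2.04 ± 0.20, adjusted p = 8.0e-06). Without the C1qa-rich cells Cxcl2 was 29.6, 198.7 and 89.5 CPM and Ptgs2 92.1, 358 and 324 CPM, so both progesterone libraries were above the placebo library for each in either case. The chemokine Cxcl1 was 329, 780 and 1134 CPM, and the NF-kappa B inhibitors Tnfaip3 and Nfkbia were 45.8, 123 and 114 CPM and 370, 684 and 877 CPM. The adhesion molecule Vcam1 was 18.1, 56.5 and 36.0 CPM, the matrix protease Mmp3 1217, 1864 and 2546 CPM and Txnip 39.9, 71.2 and 62.5 CPM, and Nfkbiz and Nfkb1 also rose. Placebo 2 fibroblasts included 46 of the 52 cells of cluster 30 (Fndc1, Clec3b, Pcolce2), and their part in these ratios was not tested. These ratios too have Placebo 2 as their only placebo library.

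In conventional dendritic cells 3 of 48 genes rose and 3 fell, against 3.59% of all genes in either direction (median log2 ratio 0.03 against 0.01 for all genes). Without batch 0 passed, and DESeq2 called 0 of 58, with 4 at an unadjusted p under 0.05. Cxcl2 was 188 CPM in Placebo 2, 465 in Progesterone 2 and 323 in Progesterone 3, and Ptgs2 126, 211 and 270 CPM. Cxcl1 went the other way, at 50.7, 4.10 and 3.76 CPM, as did the growth factor Areg, at 369, 122 and 78.9 CPM. Progesterone 1, in 13 cells, had 37.3, 54.3, 3.39 and 6.78 CPM of these genes. Aim2 rose by 0.79 on the log2 scale and Peli1 fell by 0.67.

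In the epithelial class 14 of 64 genes rose and 18 fell, against 24.8% and 25.4% of all genes (median log2 ratio -0.03 against 0.02), and without batch 1 rose (Tnfaip3) and 2 fell (Casp4 and Areg). Processing genes had 1 higher and 9 lower of 15, and signalling genes 8 higher and 1 lower of 23. Among the lower were Il1rl2, the interleukin-36 receptor, at 1.75 CPM in Placebo 2, 0.115 in Progesterone 2, 0.0642 in Progesterone 3 and 1.07 in Progesterone 1, and Casp4 at 5.86, 1.18, 1.43 and 2.14 CPM. Saa3, an acute-phase gene, was 9.55, 0.259, 0.0642 and 1.42 CPM and Il18rap, the second chain of the interleukin-18 receptor, 4.14, 1.11, 0.835 and 0.356 CPM. Tnfaip3 rose, from 2.16 CPM to 12.9, 10.8 and 22.4. Ccl2 fell from 4.75 CPM to 1.51, 0.797 and 2.14, and Cxcl5 and Il1f5 passed at levels under 1 CPM.

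Across 34 class-by-library points from 10 classes, the genes whose log2(CPM + 1) followed a member most closely were named by Pearson r, as a description. Points of a library share its depth and those of a class its markers. Il1b went with Clec7a (r = 0.964), Clec4n (0.964) and Tlr2 (0.959), Il1a with Cd300ld (0.947), LOC100038947 (0.940) and Slc11a1 (0.934), and Il1rn with Cd300ld (0.955), Clec4e (0.947) and Clec5a (0.943). These are mostly surface receptors of myeloid cells. Il18 went with Tlr2 (0.886), Pilra (0.885) and Csf1r (0.874). Il33 went with Ccbe1 (0.928), 6030419C18Rik (0.909) and Pcdhb16 (0.893), and Il1r1, the least closely followed, with Prkg2 (0.774), Cryab (0.767) and C1s1 (0.763). Among the other receptors, Il1rap went with Tgoln1 (0.883), Mbnl2 (0.855) and Chst11 (0.854), Il1rl1 with F730043M19Rik (0.833), Itgb8 (0.825) and Podnl1 (0.811), and Il18r1 with Sytl2 (0.850), AW112010 (0.813) and Eya2 (0.810). Il1r2 went with Gm16894 (0.902), Cass4 (0.838) and Cd80 (0.836). Gm16894 is an antisense gene within the span of Il1r2 (chr1:40076228-40085851, minus strand), and how reads were given to either strand is not given in the sources used here, so their counts are uncertain in part.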

How the data were processed

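Single cells of 5 SSM2 tumours were measured with a 10x 3′ kit, and the authors deposited filtered matrices of whole-number UMI counts per gene and cell. Per the file headers these were made with Cell Ranger 8.0.1, and per the submitters' processing notes with Cell Ranger 7.0.0 on mm10; filters and strand settings are not given in the sources used here. Samples were grouped by the treatment label and batch by the title, and numbers are those of the labels within a group. No row without a gene name and no mitochondrial gene was in the tables.

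Cells with at least 250 genes were kept (2241 to 5857 barcodes per library as deposited, 23409215 to 204786073 UMIs). The cells that scored most like simulated pairs were removed as doublets. Their number was set beforehand at 0.8% per 1000 barcodes, which gave 1.78% to 4.68% of barcodes. Cells were clustered with scanpy 1.11.5 (2000 variable genes, 30 components, 20 neighbours, Leiden resolution 1.0) with the members, and the pathway genes, left out; 25 of the 34 clusters were named from marker genes and 9, of very low UMIs or mixed markers, were not. A rule that leaves clusters of very low UMIs unnamed was added after seeing the data. UMIs were summed per class and library with at least 10 cells.

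Sums were tested with edgeR 4.0.16 (quasi-likelihood test, TMM, filterByExpr, batch as a term) across all genes with Benjamini-Hochberg adjustment; DESeq2 1.42.0 was an alternative. The script was tested on simulated data. The sums of NK and endothelial cells leave no residual degree of freedom, and neutrophils and plasmacytoid dendritic cells were not fitted, so these classes have values only. Intervals are exact (Poisson for counts, Clopper-Pearson for shares, 95%) and cover counting error; a count of 0 allows up to 3 counts. All 10 members were named, with up to 20 passing pathway genes in macrophages and T cells, up to 8 by size of ratio in other classes, and the 3 most similar genes per member. The members, lists and markers were chosen with earlier results of these data known. Alternatives were another tool, no filter, no batch term, other clusterings, thinning, doublets kept, other sub-classes and each library left out.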

Additional observations from a re-analysis of the deposited data

Results flagged for a closer look

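Il1b in macrophages went opposite ways in the 2 batches. The log2 ratio of progesterone to placebo, computed on CPM + 1, was -0.29 in batch 1 (Progesterone 1 against Placebo 1) and at least 0.70 in each of the 2 comparisons of batch 2. Il1rap in macrophages went the reverse, with 0.88 in batch 1 and values down to -0.79 in batch 2. Batch 1 rests on the 16 macrophages of Placebo 1, of which 15 were in the monocyte cluster, against 200 of the 293 of Progesterone 1. Within the monocyte-like sub-class the directions of Il1b were the reverse of those of the whole class. There it was 723 CPM in Placebo 1 (12 cells) and 1844 in Progesterone 1. Batch 2 had 3147 CPM in Placebo 2 against 2252 and 1316 in Progesterone 2 and 3. The difference between the batches was not tested for either gene.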

How the results depend on the processing

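Of 599 log2 ratios of members under alternatives, 468 kept their direction and side of the threshold, 70 passed only under the alternative, 17 no longer passed and 44 changed sign. The cause was not tested unless the alternative leaves libraries out. In macrophages 0 members passed, against 1 of 7 with DESeq2 (180 of 7377 genes) and 3 of 10 with no filter on low counts (717 of 17633 genes). With doublets kept 1 of 10 passed (164 of 11832 genes). Without Progesterone 1 it was 7 of 10 (2287 of 12396 genes), and without Progesterone 2 or 3 it was 0. In T cells 0 passed, against 2 of 10 with no filter (188 of 17840 genes) and 0 on leaving out any progesterone library. Over all cells 0 passed, against 6 of 10 without Progesterone 1 (6337 of 17741 genes) and 0 without Progesterone 2 or 3. Calls also changed without Placebo 2 in macrophages, T cells and over all cells, and without Placebo 1 in macrophages and over all cells. Asking for at least 20 cells leaves Placebo 1 out of the macrophages. With batch as a term, leaving out Placebo 1 or Progesterone 1 compares Placebo 2 with Progesterone 2 and 3, as batch 2 alone does. Leaving out Placebo 2 compares Placebo 1 with Progesterone 1. A fit without Placebo 1 or Placebo 2 has 1 placebo library, assumed to vary like the others. In macrophages, batch 2 alone, the C1q-high sub-class and the class without the monocyte cluster also have 1 placebo library, and calls changed in each. Those alternatives were chosen after seeing the data.

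The batch term is the replicate block. Without it 4 members passed in epithelial and 0 in conventional dendritic cells (Il1r2 adjusted p = 0.9999, edgeR), where with it 9 and 1 did, and log2 ratios changed sign for Il1rap in macrophages (0.085) and epithelial cells (3.45), Il33 in epithelial cells (0.013) and over all cells (-0.29), and Il1b (-0.020), Il1rl1 (-0.054) and Il18r1 (-0.25) in conventional dendritic cells. It changed the call of no member in macrophages, T cells or over all cells. In epithelial cells 5 passed after thinning to the lowest total and 1 with classes from marker UMIs, where Il1r2 was 2.30. In conventional dendritic cells Il1r2 did not pass with DESeq2 or with no filter. At Leiden resolution 0.5, 0 of 9 members passed there (7 of 8583 genes, Il18r1 -0.0075).

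Leaving out a library, log2 ratios in macrophages ranged from -0.24 to 0.80 for Il1b, -0.66 to 1.22 for Il1r2, -0.58 to 0.94 for Il1rap, -2.54 to 6.97 for Il1rl1, -1.25 to 5.76 for Il33 and -2.71 to 8.44 for Il18r1, each changing sign without Placebo 2. In T cells they ranged from -1.74 to 1.91 for Il1r1, -0.87 to 1.00 for Il1rap and -0.17 to 4.66 for Il1rl1, and over all cells from -0.71 to 4.78 for Il1rn, -0.71 to 1.73 for Il1r1, -1.33 to 2.30 for Il1rl1 and -1.52 to 4.69 for Il33, changing sign without Placebo 1. In batch 2 alone Il1rap (0.99) and Il1rl1 (-0.17) in T cells and Il1rn (-0.68), Il1r1 (-0.67), Il1rl1 (-1.29) and Il33 (-1.48) over all cells had the opposite sign. So did Il1a (-0.20), Il1r1 (0.34) and Il1r2 (-0.48) in C1q-high macrophages, Il1b (-0.069) in the monocyte cluster, Il1rap in thinned macrophages (0.24) and regulatory T cells (0.27), Il1rl1 over all thinned cells (-0.024) and Il18 in fibroblasts with doublets kept (-0.014) and Il1r2 there without C1qa-rich cells (-0.15). Thinned to 2000 UMIs, 4 members were read in at least 50% of the cells of their leading class, and 2 when thinned to 1000.

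With batch as a term, no residual degree of freedom was left on leaving out a library in fibroblasts and B cells, and in epithelial and conventional dendritic cells except Progesterone 1, or with classes from marker UMIs in macrophages, T cells, fibroblasts and B cells. Depth limits Placebo 1 macrophages, T cells of batch 2 and members under 1 CPM.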
